A study of Homo sapiens with 6 samples.

Results

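Base excision repair and single-strand break repair were followed here as a set of 31 genes in OE33 cells, a human cell line established from an adenocarcinoma of the oesophagus, with and without exposure to APX2009. The set holds DNA glycosylases, abasic-site endonucleases, strand-end processing enzymes and their scaffold XRCC1, poly(ADP-ribose) enzymes, repair polymerases, nucleases and ligases, and enzymes that clean the nucleotide pool. Members were named by symbol for their known roles, with earlier results of these data known, and matched to the Ensembl gene identifiers of the count table through GENCODE 29. All 31 symbols matched, giving 31 of the 58051 genes in the table, and all 31 passed the filter on low counts, giving 31 of the 14773 genes tested.

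The study asks how transcripts respond when the redox activity of APE1, the protein made from APEX1, is inhibited. Of 6 RNA sequencing libraries, 3 came from untreated OE33 cells (untreated replicates 1 to 3) and 3 from OE33 cells given the small-molecule inhibitor APX2009 at 15 µM for 24 h (APX2009 replicates 1 to 3). Both groups were grown in the same serum-supplemented medium, and polyadenylated RNA was sequenced. The design text calls the replicates independent and biological. All results refer to a single cell line, the control is described as untreated with no vehicle named, and no inactive analogue was analysed here.

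Base excision repair starts when a glycosylase cuts a damaged or wrong base from its sugar. APE1 then opens the backbone at the abasic site, a polymerase fills the gap and a ligase seals it, either after a single nucleotide or after a longer patch in which a displaced flap is cut away. Breaks in a single strand, whether repair intermediates or direct damage, are sensed by poly(ADP-ribose) polymerases and handed to XRCC1, which gathers enzymes that clean the broken ends. APE1 has another, redox activity on transcription factors, which is the activity APX2009 is directed at.

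The libraries held between 21158750 and 26111656 counts on genes, and the members took between 0.108% and 0.129% of them. Epithelial markers were abundant in every library, but 6 of 9 fell and none rose, and their summed level was 30580 to 31250 CPM (counts scaled by library size, as CPM from edgeR) in untreated and 17570 to 21680 CPM in APX2009 libraries. Summed fibroblast markers were at 8.35 to 12.7 CPM untreated and 9.11 to 19.3 CPM treated, leukocyte markers at 2.71 to 2.91 and 3.31 to 5.06 CPM, and endothelial markers at 0.0445 to 0.442 and 0.0889 to 2.17 CPM, the highest of each in APX2009 replicate 1. APX2009 replicate 1 stood apart, with counts on 25015 genes against 21845 to 22446 in the other 5 libraries and 0.315% of its counts on ERCC spike-in RNA against 0.480% to 0.752%. The fibroblast genes COL1A2, COL3A1 and DCN were at 0 in the other 5 libraries and at 0.974, 1.80 and 1.57 CPM in that one. Results on members that change with this library are given with and without it, and the part of other cells in them was not tested.

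A gene is said to have risen or fallen where the quasi-likelihood test of edgeR gave a Benjamini-Hochberg adjusted p under 0.05 over all genes tested. By that rule 14 of the 31 members (45.2%) changed, against 34.7% of all genes tested. The 6 that rose were NEIL2, MBD4, APTX, TDP2, NUDT1 and HMGB1, and the 8 that fell were UNG, MUTYH, APEX2, XRCC1, TDP1, APLF, FEN1 and LIG1. Over all genes, 17.2% rose and 17.4% fell. The range of the 3 APX2009 libraries lay clear of the range of the 3 untreated libraries for 18 members, 10 above and 8 below, against 49.4% of all genes in either direction. The median log2 change of the members was 0.05, beside 0.02 over all genes tested, and the median size of the change without its sign was 0.30 beside 0.25. The members moved in both directions, and nothing particular to the set is read from these shares. With bulk RNA, a change in the number of cells of one kind cannot be told apart from a change in transcripts per cell.

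**Figure D1:**
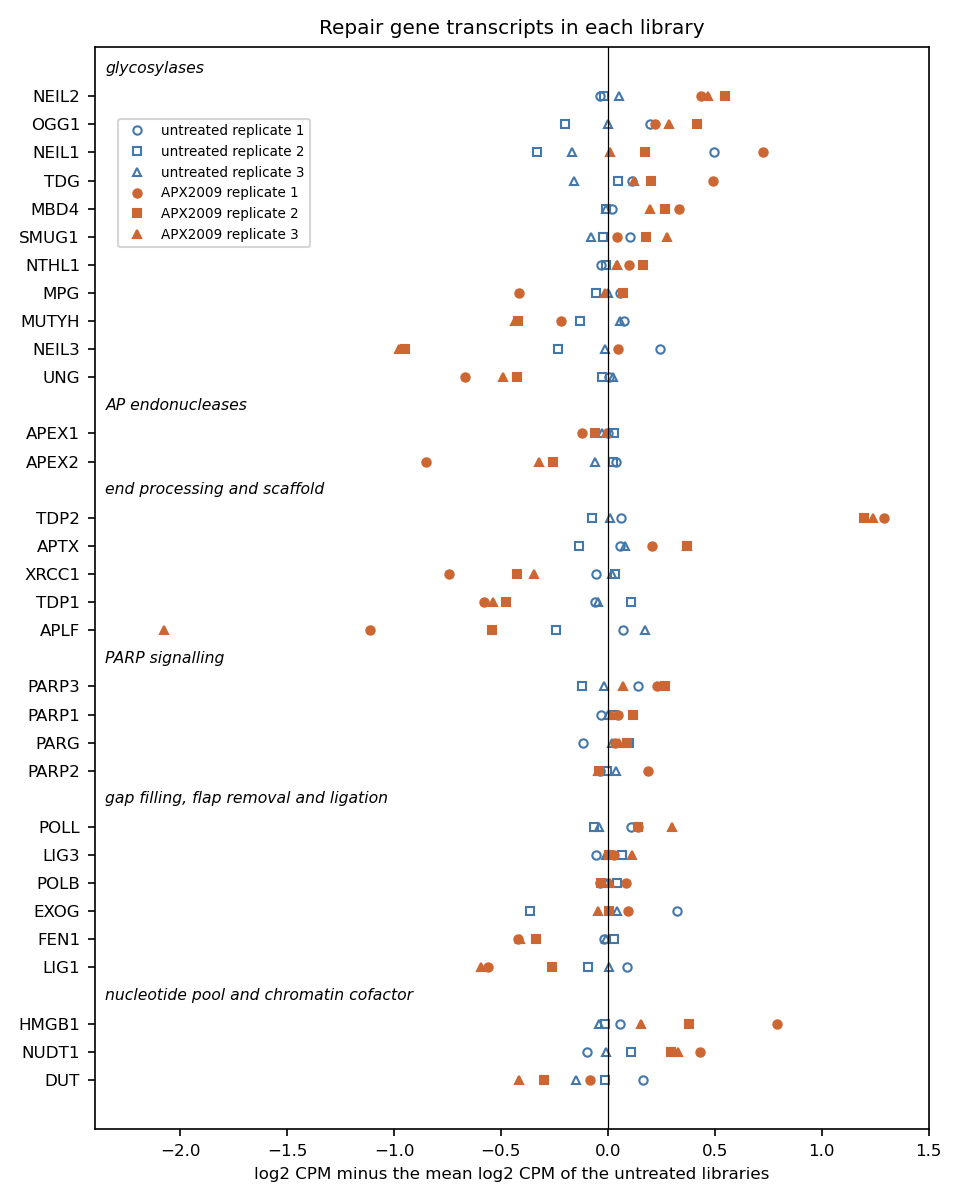
Level of each of the 31 repair genes in the 6 libraries, as log2 CPM minus the mean log2 CPM of the untreated libraries, with genes grouped by role. Open blue symbols are untreated and filled orange symbols APX2009 libraries; TDP2 stands clear on the right, and UNG, XRCC1, TDP1 and APLF on the left.

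APEX1 (ENSG00000100823), which encodes the abasic endonuclease and redox factor that the compound is directed at, was the most abundant member per length. Its untreated libraries held 180.4, 184.0 and 177.1 CPM and its APX2009 libraries 166.1, 173.2 and 179.5 CPM. The groups overlapped, and the log2 change of -0.06 ± 0.06 (SE) had a 95% interval of -0.20 to 0.07 (edgeR adjusted p = 0.469). APEX2 encodes the second abasic endonuclease, whose main activity is as an exonuclease at blocked ends and which binds PCNA. Its levels were 28.1, 27.8 and 26.2 CPM in untreated cells and 15.2, 22.9 and 21.9 CPM in treated cells. All 3 treated libraries lay below all untreated ones, and APX2009 replicate 1 lay lowest. APEX2 fell by 0.46 ± 0.13 on the log2 scale (edgeR adjusted p = 0.0239). The log2 change was -0.29 without APX2009 replicate 1, and the adjusted p over the single-library omissions ran from 0.00816 to 0.0691, missing the threshold without untreated replicate 1 or 2. The ratio of APEX1 to APEX2 in FPKM (CPM per kilobase of exon) was 11.4 ± 0.286 (SD, n = 3) in untreated and 15.3 ± 3.07 in treated cells; the ranges did not overlap, and the exact two-sided permutation p was 0.1, the smallest that 3 against 3 libraries can give.

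Among the 11 glycosylases, 2 rose, 2 fell and 7 did not pass the test, with a median log2 change of 0.17. UNG, the main uracil-DNA glycosylase, with a nuclear form active at replication forks and a mitochondrial form, fell most. UNG stood at 47.8, 46.7 and 48.4 CPM in untreated cells and at 30.0, 35.5 and 33.9 CPM in treated cells. The groups were well separated and every treated value was below every untreated one. The log2 change was -0.53 ± 0.08, a level 1.44-fold lower (edgeR adjusted p = 5.07e-04). SMUG1, another enzyme that removes uracil, had 25.7, 23.6 and 22.6 CPM untreated and 24.7, 27.1 and 29.03 CPM treated. These ranges overlapped, with a log2 change of 0.17 ± 0.09 and an interval of -0.03 to 0.36 (edgeR adjusted p = 0.166). SMUG1 passed when APX2009 replicate 1 was left out (edgeR adjusted p = 0.0418). The ratio of UNG to SMUG1 in FPKM was 4.68 ± 0.326 in untreated and 2.89 ± 0.174 in treated libraries, without overlap.

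The remaining enzymes for pyrimidine mispairs were MBD4 and TDG, which remove thymine or uracil opposite guanine, chiefly at CpG sites. MBD4 had 21.0, 20.6 and 20.5 CPM in untreated cells and 26.0, 24.9 and 23.8 CPM in treated cells. The untreated libraries were tightly grouped and all treated libraries lay above them. MBD4 rose by 0.27 ± 0.07 on the log2 scale (edgeR adjusted p = 0.0185). It missed the threshold without any 1 of the untreated libraries, with adjusted p from 0.0190 to 0.0786 over the omissions. TDG had 29.6, 28.3 and 24.5 CPM untreated and 38.4, 31.4 and 29.7 CPM treated. These groups did not overlap, though by a narrow margin, and the log2 change of 0.28 ± 0.11 did not pass (edgeR adjusted p = 0.0742). It was 0.15 without APX2009 replicate 1, the highest of the libraries. Without APX2009 replicate 3 TDG passed, with edgeR adjusted p from 0.0431 to 0.263 over the single-library omissions.

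NEIL2, a glycosylase for oxidized pyrimidines that also works on single-stranded and bubble DNA, showed the largest rise of this role. It had 14.8, 15.0 and 15.8 CPM in untreated cells and 20.6, 22.2 and 21.0 CPM in treated cells. Both groups were narrow and far apart. The log2 change was 0.48 ± 0.08, a level 1.398-fold higher (edgeR adjusted p = 0.00124). MUTYH, which removes adenine placed opposite oxidized guanine, had 12.3, 10.7 and 12.1 CPM untreated and 10.0, 8.76 and 8.67 CPM treated. The treated libraries were all lower, but APX2009 replicate 1 came close to the lowest untreated library. MUTYH fell by 0.35 ± 0.11 on the log2 scale (edgeR adjusted p = 0.0360). This call was lost without any 1 library other than APX2009 replicate 1, with adjusted p from 0.00917 to 0.134 over the omissions.

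The glycosylases for oxidized bases that did not pass had small or poorly resolved differences. OGG1, which removes oxidized guanine itself, had 6.97, 5.30 and 6.10 CPM untreated and 7.08, 8.13 and 7.42 CPM treated, without overlap (log2 change 0.30 ± 0.14, edgeR adjusted p = 0.116). NTHL1, for oxidized pyrimidines, had a log2 change of 0.10 ± 0.07 with an interval of -0.06 to 0.26, and its ranges were also just clear of each other. NEIL1, which acts on similar lesions, varied more within groups, from 3.86 to 6.84 CPM untreated and from 4.89 to 8.01 CPM treated, and its interval of -0.24 to 0.85 was correspondingly wide. NEIL3, known for work on single-stranded DNA and interstrand crosslinks, was the scarcest glycosylase at 0.803 to 1.12 CPM untreated and 0.479 to 0.974 CPM treated. Its log2 change of -0.52 ± 0.36 had an interval from -1.31 to 0.27, which spans a large fall and a small rise, so no difference was detectable at this depth. MPG, the enzyme for alkylated purines, had 50.6, 46.7 and 48.6 CPM untreated and 36.5, 51.0 and 48.1 CPM treated. Only APX2009 replicate 1 lay below the untreated range, and the log2 change was -0.11 ± 0.11 with that library and 0.03 without it.

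Per length, MPG and UNG were the leading glycosylase transcripts in untreated cells. The level of MPG is uncertain, since it shares 27.3% of its exon bases with NPRL3 on the other strand (72.2 CPM in untreated cells). MPG held 35.0% ± 0.466 of the summed FPKM of the 11 genes and UNG 22.2% ± 0.456. In treated cells UNG held 15.9% ± 0.446, NTHL1 14.3% ± 0.813 and MPG 33.5% ± 3.91. NEIL2 went from 5.41% ± 0.250 to 7.82% ± 0.219 and OGG1 from 0.837% ± 0.0924 to 1.07% ± 0.0217. The summed CPM of the 11 genes was 233.5 ± 7.76 untreated and 236.1 ± 7.24 treated, with overlapping ranges.

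The end-processing enzymes and their scaffold all changed: of 5 genes 2 rose and 3 fell. TDP2 (ENSG00000111802, chr6:24649977-24667033, minus strand, GRCh38) encodes the phosphodiesterase that frees 5′ DNA ends from trapped topoisomerase II. It had 46.4, 42.2 and 44.8 CPM in untreated cells and 108.8, 101.9 and 105.1 CPM in treated cells. Every treated library held more than any untreated one by a margin many times the spread within groups. The log2 change of 1.24 ± 0.06, or 2.37-fold, was the largest of the 31 members in either direction (edgeR adjusted p = 7.35e-07), and only 5% of all genes tested exceeded 0.86. It kept its call in each of the 6 single-library omissions, between 1.21 and 1.28 on the log2 scale. TDP1, which frees 3′ ends from trapped topoisomerase I, moved the other way. It had 10.6, 11.9 and 10.7 CPM untreated and 7.42, 7.96 and 7.62 CPM treated. Treated values were close together and all below the untreated ones, a fall of 1.45-fold (log2 change -0.53 ± 0.11, edgeR adjusted p = 0.00387).

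XRCC1, the scaffold that binds POLB, LIG3 and APTX, fell as well. XRCC1 had 26.6, 28.2 and 27.9 CPM in untreated cells and 16.5, 20.5 and 21.7 CPM in treated cells. No treated library reached the untreated range, and APX2009 replicate 1 was the lowest. Its log2 change was -0.50 ± 0.10 (edgeR adjusted p = 0.00418), and -0.39 without that library, still a call. APTX, the aprataxin enzyme that removes adenylate left by an aborted ligation, had 26.0, 22.8 and 26.4 CPM untreated and 28.8, 32.3 and 32.3 CPM treated. It rose by 0.31 ± 0.09 on the log2 scale (edgeR adjusted p = 0.0175), and missed the threshold when untreated replicate 2 was left out (adjusted p from 0.00297 to 0.0714 over the omissions). APLF, a histone chaperone with poly(ADP-ribose)-binding zinc fingers, was the scarcest of all members per length, as FPKM. It had 1.70, 1.37 and 1.82 CPM untreated and 0.749, 1.11 and 0.383 CPM treated. The treated libraries were scattered but all lower. The log2 change of -1.11 ± 0.34 was the largest fall among the members (edgeR adjusted p = 0.0296), and the call was lost without untreated replicate 1 or 3 or APX2009 replicate 3.

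The mixture of transcripts within this role changed accordingly. TDP2 was 46.5% ± 1.11 of the summed FPKM of the 5 genes in untreated cells and 69.2% ± 2.52 in treated cells. XRCC1 went from 25.7% ± 1.44 to 11.4% ± 1.499, and TDP1 from 5.75% ± 0.560 to 2.49% ± 0.102. APTX, although its own level rose, went from 21.3% ± 1.09 to 16.6% ± 0.996. The summed CPM of the 5 genes was 109.8 ± 2.91 untreated and 164.4 ± 2.49 treated.

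**Figure D2:**
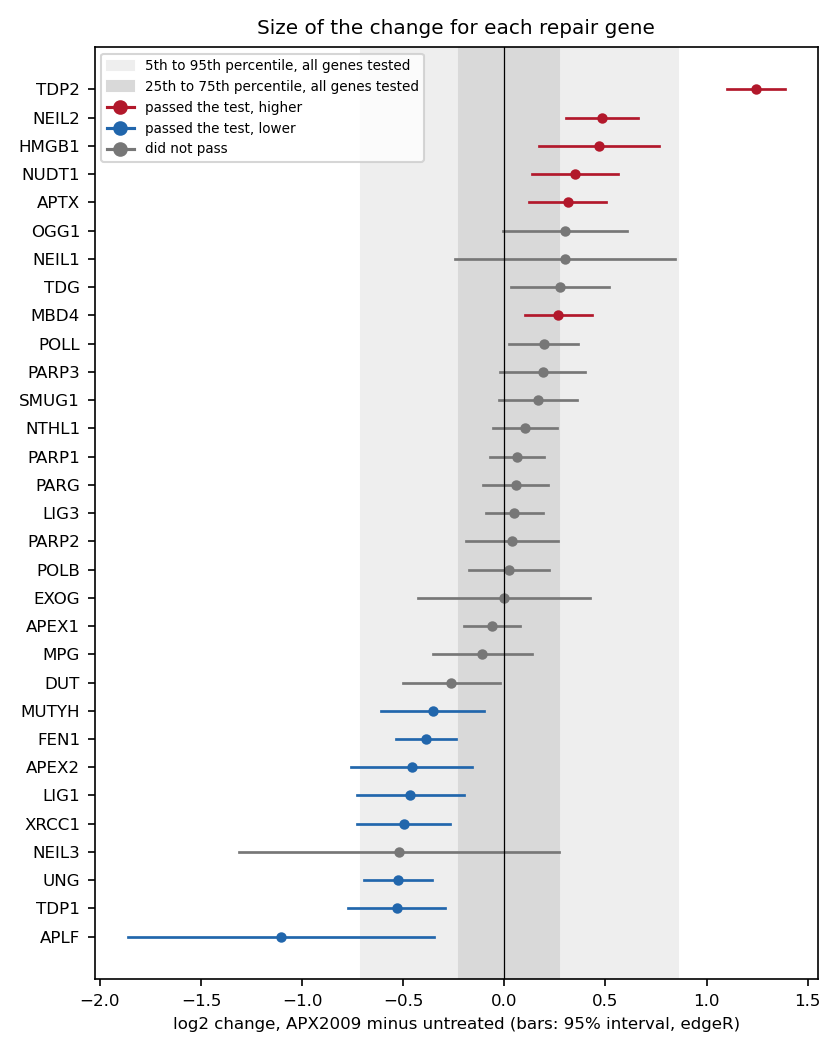
Log2 change (APX2009 minus untreated) of each repair gene with its 95% interval from edgeR, ordered by size and coloured by whether the gene rose, fell or did not pass. TDP2 at 1.24 is at one end and APLF at -1.11, with a far wider interval, at the other; the shading marks the middle of the distribution over all genes tested.

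The 4 genes of poly(ADP-ribose) signalling showed no call in either direction. By edgeR none had an unadjusted p under 0.05, and DESeq2 and limma voom also called none. PARP1, the main sensor of strand breaks and the maker of most poly(ADP-ribose), had 91.4, 95.3 and 93.5 CPM untreated and 96.5, 101.3 and 94.7 CPM treated. The ranges met, and the 95% interval of its log2 change ran from -0.07 to 0.20. PARG, the glycohydrolase that takes the polymer down, had an interval of -0.10 to 0.22, and PARP2, the second polymerase activated by breaks, one of -0.19 to 0.27. The level of a PARG pseudogene was 6.34% of that of PARG in untreated and 7.45% in treated cells, so reads shared with that copy make its level uncertain. PARP3, which adds single ADP-ribose units at breaks, had the highest estimate of the 4, at 0.19 ± 0.09 with an interval of -0.02 to 0.40. The FPKM ratio of PARP1 to PARG was 1.62 ± 0.0886 in untreated and 1.63 ± 0.0353 in treated cells, with overlapping ranges.

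Of the 6 genes for gap filling, flap removal and ligation, 2 fell and 4 did not pass. FEN1, which cuts the displaced flap in long-patch repair and at Okazaki fragments, had 36.3, 37.5 and 36.5 CPM untreated and 27.5, 29.2 and 27.7 CPM treated. Each group was tight and the gap between them was several times its width. FEN1 fell by 0.39 ± 0.07 on the log2 scale, 1.31-fold (edgeR adjusted p = 0.00140). LIG1, the ligase of replication and long-patch repair, had 14.7, 12.9 and 13.8 CPM untreated and 9.36, 11.5 and 9.15 CPM treated. The groups did not overlap, although APX2009 replicate 2 came near the lowest untreated library. LIG1 fell by 0.46 ± 0.12 (edgeR adjusted p = 0.0124), missing the threshold without untreated replicate 1 (adjusted p from 0.00666 to 0.0521 over the omissions).

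The short-patch partners of these enzymes gave other values. LIG3, the ligase that works with XRCC1 and in mitochondria, had 63.9, 69.6 and 66.0 CPM untreated and 67.9, 66.6 and 71.8 CPM treated. POLB, the polymerase that fills the single-nucleotide gap and trims the sugar remnant, had 13.5, 14.3 and 13.8 CPM untreated and 14.7, 13.6 and 14.0 CPM treated. The groups overlapped for both genes, and the 95% intervals of the log2 change were -0.09 to 0.19 for LIG3 and -0.18 to 0.22 for POLB. POLL, a related polymerase, had a log2 change of 0.19 ± 0.08 (edgeR adjusted p = 0.0746) with all 3 treated libraries above the untreated ones, and passed without APX2009 replicate 1. EXOG, a mitochondrial nuclease that removes displaced ends, was scarce, and its interval ran from -0.43 to 0.42. Set against each other in FPKM, LIG1 to LIG3 was 0.451, 0.365 and 0.412 in the untreated libraries and 0.271, 0.339 and 0.250 in the treated ones. FEN1 to POLB was 4.44, 4.35 and 4.37 untreated and 3.09, 3.55 and 3.28 treated. XRCC1 to LIG3 was 1.55 ± 0.0335 untreated and 1.06 ± 0.134 treated. None of these 3 ratios overlapped between groups, and each had the smallest exact permutation p possible, 0.1. Of 11 such ratios computed, 8 did not overlap, and each of those 8 had p = 0.138 by the exact permutation test after Benjamini-Hochberg adjustment over the 11. With 0.1 as the smallest p possible in that test, no ratio could pass. Each of the 8 held a member called lower on its own, so these ratios restate those falls and add no support.

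Of the remaining 3 members 2 rose. NUDT1 (MTH1), which removes oxidized purine triphosphates from the nucleotide pool, had 11.9, 13.7 and 12.6 CPM untreated and 17.1, 15.6 and 16.0 CPM treated. All treated libraries were higher, and NUDT1 rose by 0.35 ± 0.10 on the log2 scale (edgeR adjusted p = 0.0171), missing the threshold without untreated replicate 1 or 3 (adjusted p from 0.0254 to 0.0751). DUT, which keeps uracil out of DNA by removing dUTP, had 29.6, 26.1 and 23.9 CPM untreated and 24.9, 21.5 and 19.8 CPM treated. Here the groups overlapped through APX2009 replicate 1, and the log2 change of -0.26 ± 0.11 did not pass (edgeR adjusted p = 0.0869). It was -0.36 without that library and then passed. HMGB1, an abundant chromatin protein that bends DNA and acts as a cofactor of long-patch repair, had 181.4, 172.4 and 169.1 CPM untreated and 301.7, 226.4 and 194.1 CPM treated. Every treated library was higher, but they differed widely and APX2009 replicate 1 was far above the others. HMGB1 rose by 0.47 ± 0.13 (edgeR adjusted p = 0.0212). Its log2 change was 0.27 without APX2009 replicate 1, still a call, and the call was lost without any 1 of the untreated libraries (adjusted p from 0.00435 to 0.0804). The table also lists 48 HMGB1 pseudogenes, whose summed level was 3.51% of that of HMGB1 in untreated and 3.97% in treated cells, so reads shared with those copies make its level uncertain.

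Only UNG, NEIL2, TDP1, TDP2, XRCC1 and FEN1, of the 14 members that changed, kept the call in all 6 single-library omissions. With both other tools run, DESeq2 and limma voom, and with RLE or total-count scaling, the same 14 genes were called and no other member. Scaling by ERCC spike-in totals, whose share ran from 0.315% to 0.752% in the treated libraries, called none of the members by edgeR: 1, TDP2, had an unadjusted p under 0.05, its adjusted p was 0.431, and the log2 changes of the 14 kept their signs. A combination chosen after the data were seen, ERCC scaling without APX2009 replicate 1, moved the median of all genes to -0.48. There 1 member, TDP2, rose and 22 fell, and MBD4, APTX, NUDT1 and HMGB1 turned negative. Relative to that median these 4 stood at 0.23, 0.36, 0.30 and 0.26 and TDP2 at 1.21. All directions given here for members are therefore relative to the bulk of the transcripts.

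**Figure D3:**
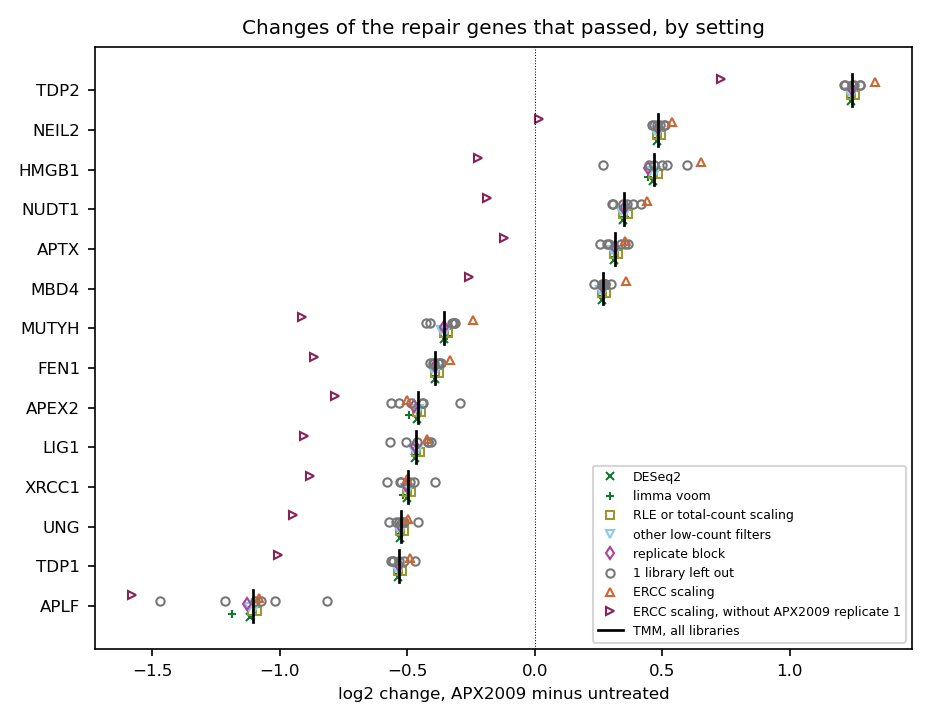
Log2 change of the 14 called members under each processing alternative and with single libraries left out. Points for one gene stay on one side of 0 except for MBD4, APTX, NUDT1 and HMGB1 under ERCC scaling without APX2009 replicate 1.

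Levels between genes were compared per length, as FPKM. That length is the union of all annotated exons, so the order and the shares of summed FPKM depend on the annotation. HMGB1 and APEX1 had 174.3 and 180.5 CPM in untreated cells, over 7723 and 1886 bases of exon. APEX1 led in untreated cells at 95.7 ± 1.84, followed by MPG at 29.3 ± 1.16, HMGB1 at 22.6 ± 0.821, UNG at 18.6 ± 0.345, FEN1 at 14.9 ± 0.269, TDP2 at 14.4 ± 0.693 and PARP1 at 13.0 ± 0.272 (SD, n = 3). FEN1 and TDP2 did not differ beyond their spread in this order. The lowest were APLF at 0.228 ± 0.0332, NEIL3 at 0.322 ± 0.0534, EXOG at 0.656 ± 0.152, OGG1 at 0.701 ± 0.0958 and NEIL1 at 0.721 ± 0.232, of which the last 3 lay within each other's spread. In treated cells APEX1 stood at 91.7 ± 3.55 and TDP2, at 34.2 ± 1.13, went from rank 6 to rank 2. HMGB1 at 31.2 ± 7.14 and MPG at 27.2 ± 4.63 came next and lay within each other's spread. TDP2 lay within the spread of HMGB1, so its rank above HMGB1 is not resolved. XRCC1 went from 7.97 ± 0.255 and rank 11 to 5.65 ± 0.790 and rank 19, and APEX2 from rank 9 to rank 17. Treated APEX2 at 6.16 ± 1.29 and DUT at 6.01 ± 0.715 lay within the spread of XRCC1, so these treated ranks are not firm.

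**Figure D4:**
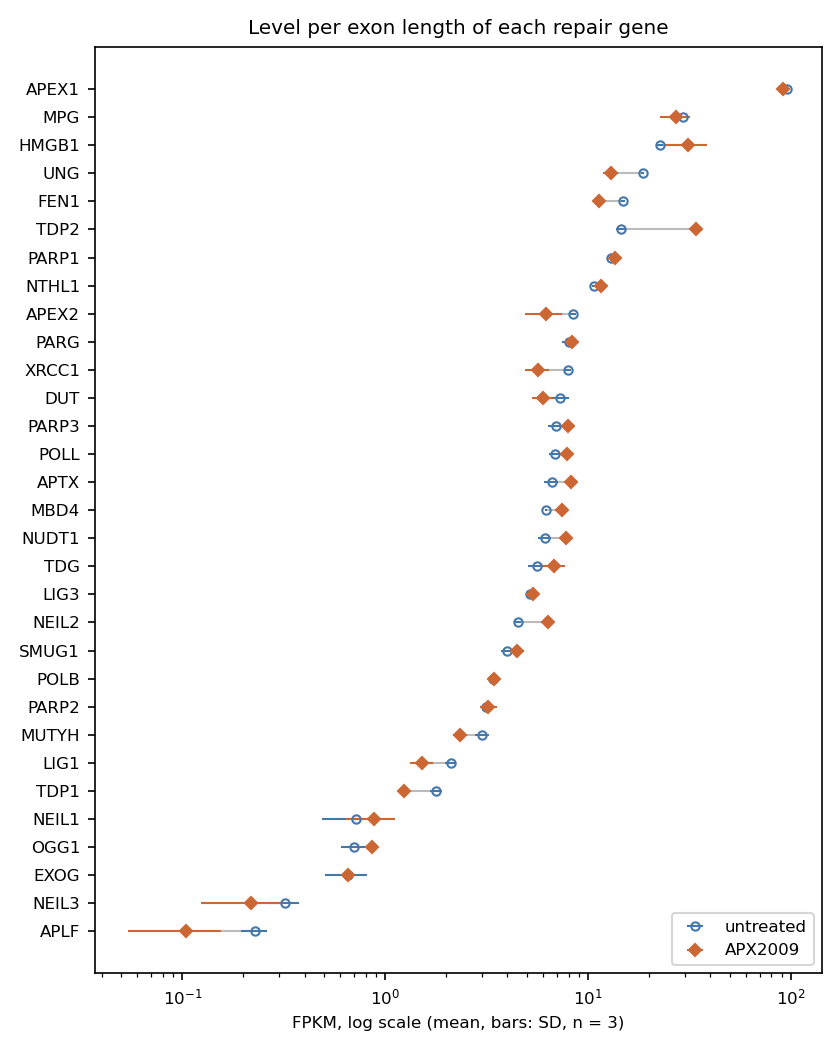
Mean FPKM of each repair gene in untreated (open) and APX2009 (filled) cells on a log axis, with bars for the SD over 3 libraries, ordered by the untreated level. APEX1 is highest in both groups, at 95.7 and 91.7, and TDP2 shows the widest gap among the abundant members.

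Promoter sequence was examined because members changed in both directions, with UNG, LIG1, FEN1, XRCC1 and TDP1 falling and TDP2 rising. RefSeq promoters (GRCh38.p14) matched 28 of the 31 members, and the 250 bases before each start were searched on both strands. NEIL2, POLB and SMUG1 had no match and were not searched. The letters TTTCCCGC or TTTGGCGC or TTTGCCGC or TTTCGCGC, the forms of the E2F motif tested, were present in 3 of the 28 genes, against 3.40% of 27305 genes in the RefSeq table. Those 3 were LIG1 and UNG, which fell, and DUT. The letters TTTGAA, the cell cycle homology region, were present in 7 of 28 genes, against 16.1% of all, of which UNG, XRCC1, TDP1 and MUTYH fell, HMGB1 rose, and DUT and NEIL3 did not pass. The core of the antioxidant response element, TGACNNNGC, was present in TDP2, MUTYH and NTHL1, 3 of 28, against 13.2% of all. No match overlapped another of a different motif in the sequences shown. A match is a description of letters, and no binding was measured.

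The matches of UNG, TDP2, LIG1, XRCC1 and TDP1 are given on the coding strand, in lower case with matched letters in capitals. Those of DUT, HMGB1, MUTYH, NEIL3 and NTHL1 are not shown. Among them are TTTGAA in HMGB1, which rose, and the antioxidant response element core in MUTYH, which fell. For UNG, whose second start lies within the gene, 196 bases (chr12:109097922-109098117, plus strand) from 250 to 55 bases before that start and outside any GENCODE 29 exon are given. The first capitals there are TTTGAA read on the other strand and the last are the E2F letters.
UNG: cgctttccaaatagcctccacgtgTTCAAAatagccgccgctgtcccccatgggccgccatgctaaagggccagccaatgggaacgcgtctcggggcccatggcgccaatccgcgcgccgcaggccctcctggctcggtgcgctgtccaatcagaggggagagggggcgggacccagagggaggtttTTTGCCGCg
For the other 4, 28 bases around the match are given, since these matches fall in bases that GENCODE 29 places in an exon of at least 1 transcript.
TDP2: gcacccttgTGACGAAGCgcgcatgcgc
LIG1: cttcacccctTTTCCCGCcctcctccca
XRCC1: gcgcgccggggTTTGAAaggcccgagcc
TDP1: tgccgccagggTTTGAActgcgcgcatg
These lie at chr6:24667039-24667066 (minus strand), chr19:48170441-48170468 (minus strand), chr19:43575578-43575605 (minus strand) and chr14:89955886-89955913 (plus strand). The TDP2 match began 158 bases before the start, in a window shared with the neighbouring gene ACOT13. It lies upstream of the GENCODE 29 TDP2 gene, whose 5′ end is at 24667033, so the exon it falls in is one of ACOT13. The LIG1 match began 114 bases before its start, that of XRCC1 67 and that of TDP1 30.

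Other genes of the pathway, in 7 lists of 78 genes, were measured beside the members. Of the 74 tested, 5 rose and 29 fell, with a median log2 change of -0.17. Long-patch polymerases and the clamp and its loader gave 0 of 17 higher and 9 of 17 lower (none higher at an unadjusted p under 0.05 by edgeR, and none by DESeq2 or limma voom). POLE, the catalytic subunit of polymerase epsilon, fell by 0.60 ± 0.07 on the log2 scale, POLD2, a subunit of polymerase delta, by 0.54 ± 0.07, and the clamp loader subunits RFC3 and RFC5 by 0.58 ± 0.08 and 0.39 ± 0.08. PCNA, the clamp, had 119.8 ± 10.2 CPM untreated and 106.8 ± 15.1 CPM treated and did not pass (edgeR adjusted p = 0.240). POLE and POLD2 moved in the direction of FEN1 and LIG1, with which they work.

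The next list joined ADP-ribose cofactors and erasers with further relatives of PARP1, and held 2 of 13 higher and 6 of 13 lower. The genes that rose were relatives of PARP1, and the falls were in relatives and in cofactors or erasers. MACROD1, a hydrolase that removes ADP-ribose, fell by 0.89 ± 0.08 on the log2 scale, and PARP10 and PARP9, relatives of PARP1 that make single units or act in interferon responses, fell by 0.61 ± 0.09 and 0.41 ± 0.08. TIPARP, a target of the aryl hydrocarbon receptor, rose by 0.67 ± 0.07. Among 13 further genes of break and abasic site repair, 5 fell and none rose, with 1 gene higher at an unadjusted p under 0.05 by edgeR and none called by DESeq2 or limma voom. XRCC5 and XRCC6, the Ku subunits, fell by 0.38 ± 0.07 and 0.31 ± 0.07, RNASEH2A, which removes ribonucleotides, by 0.55 ± 0.12, and TOP1, whose trapped complexes TDP1 resolves, by 0.28 ± 0.08.

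A further list joined nucleotide pool enzymes with direct-reversal repair proteins, among them ALKBH2 and ALKBH3. Of its 8 genes tested, 4 fell, all of them pool enzymes, and none rose by edgeR, DESeq2 or limma voom. The 1 gene higher at an unadjusted p under 0.05 by edgeR was ALKBH2, named after its value was seen (log2 change 0.22, edgeR adjusted p = 0.0788). SAMHD1, which destroys deoxynucleotides, fell by 0.44 ± 0.07 on the log2 scale, and ITPA and DCTPP1, which remove altered nucleotides, fell by 0.36 ± 0.07 and 0.37 ± 0.08. These stand beside the rise of NUDT1. Another list joined the TET enzymes of oxidative DNA demethylation with GADD45 stress-response genes. Of its 5 genes tested 2 rose: GADD45G by 2.19 ± 0.20 from a low level of 0.687 ± 0.0557 CPM, and GADD45A by 0.23 ± 0.07. No TET gene was called. GADD45B and TET3 had log2 changes of -0.23 ± 0.09 and -0.17 ± 0.07 that did not pass. Of 9 mitochondrial repair and replication genes 2 fell, the nuclease MGME1 by 0.37 ± 0.08 and the helicase TWNK by 0.24 ± 0.07, and none rose (none at an unadjusted p under 0.05 by edgeR, and none by DESeq2 or limma voom). DNA2 and PRIMPOL had log2 changes of -0.30 ± 0.11 and -0.30 ± 0.14 that did not pass. Among 9 partners of APE1, HMGB2, a relative of HMGB1, fell by 0.79 ± 0.08, HNRNPL by 0.28 ± 0.07 and KPNA2 by 0.30 ± 0.07, while PPID rose by 0.28 ± 0.08. HMGB1 and HMGB2 thus had calls of opposite sign.

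Reference lists of other processes had larger median changes than the repair genes. Of 20 replication genes 15 fell, with a median of -0.65 and RRM2 at -1.32 ± 0.09, MCM7 at -1.34 ± 0.10 and TK1 at -1.26 ± 0.10 on the log2 scale. All 14 mitosis genes fell, TPX2, PLK1 and TOP2A with the smallest p, with a median of -1.06. All 10 NRF2 response genes rose, GCLM, GCLC and HMOX1 with the smallest p, with a median of 1.83. Among the members only APLF had a log2 change below -0.65 and none reached 1.83, and the part of a shift in the cell cycle in the falls of UNG, FEN1, LIG1 and TDP1 was not tested.

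**Figure D5:**
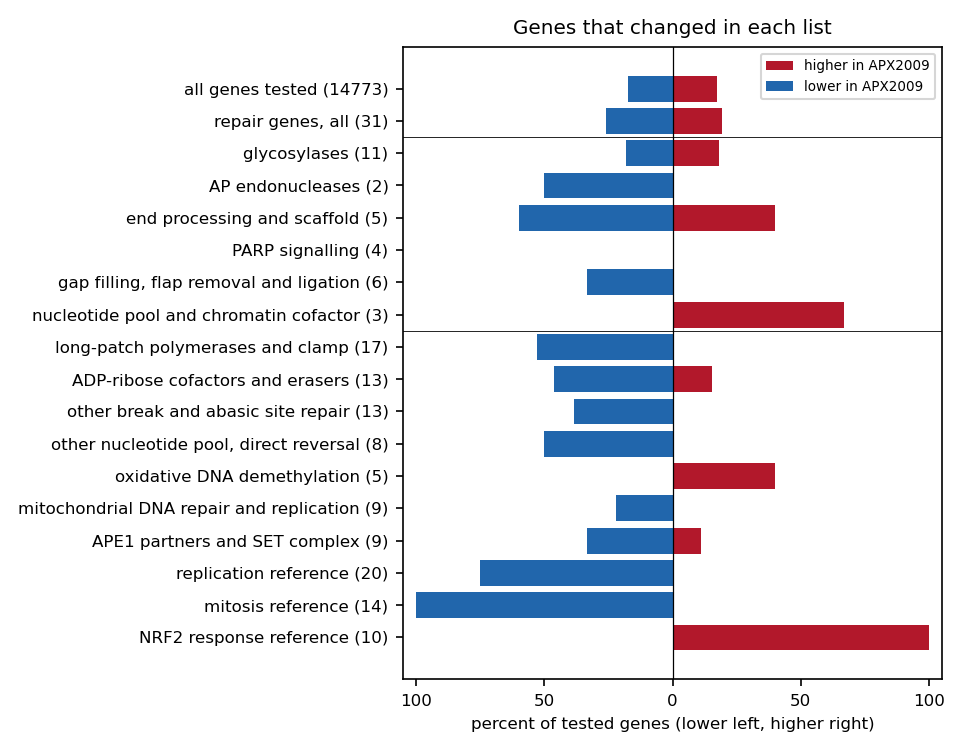
Share of tested genes that rose (right) and fell (left) by edgeR in each role of the repair set, each other pathway list and each reference list, beside the share over all genes tested. End processing is the role with every gene called, 2 rising and 3 falling, and poly(ADP-ribose) signalling the role with none. The list named for ADP-ribose cofactors and erasers also holds relatives of PARP1, and that named for oxidative DNA demethylation also holds GADD45 genes.

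Several members share exon bases with a neighbour on the other strand, and the strand setting of the counting is not given in the sources used here, so their reads cannot be told apart from those of the neighbour. Their levels, shares of summed FPKM and ranks are uncertain to that extent. The share of exon bases was 29.1% for LIG3 with RFFL (81.1 CPM in untreated cells), 27.3% for MPG with NPRL3, 26.4% for NEIL1 with MAN2C1, 16.5% for NTHL1 with TSC2 and 14.1% for MUTYH with TOE1. OGG1 shares 2180 exon bases with CAMK1. Of these neighbours NPRL3 fell, by 0.29 on the log2 scale (edgeR adjusted p = 0.0196), and the other 5 did not pass. APLF shares 22.8% with PROKR1, which was at 0 CPM in both groups, and TDP2, UNG and TDP1 share none with any neighbour. APLF and NEIL3 rest on few reads, 8 to 41 counts per library for APLF and 10 to 26 for NEIL3.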

How the data were processed

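The authors deposited raw whole-number read counts per Ensembl gene for 58051 genes and 92 ERCC spike-in transcripts in 6 libraries, with no normalization. The submitters' processing notes name the build GRCh38 and, as tools, STAR 2.5.2b, Trimmomatic 0.36, Subread 1.5.2 and featureCounts. Which annotation release, strand setting or filters were used, and in which order the tools ran, is not given in the sources used here. Groups and replicate numbers came from the sample titles.

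Library sizes and tests left out the ERCC rows. After the default filterByExpr filter and TMM scaling, treatment was tested, with no other term, by the two-sided quasi-likelihood test of edgeR 4.0.16 in R 4.3.3, with Benjamini-Hochberg adjustment over the 14773 genes tested. SEs and intervals of log2 changes came from the F statistic. CPM uses TMM-adjusted library sizes, and FPKM is CPM per kilobase of the union of GENCODE 29 exons; GENCODE 29 matched 57447 of the 58051 identifiers. Errors beside levels are SDs of 3 libraries. Libraries of one group always differed by more than sampling noise (chi-square per degree of freedom at least 3.06). Where cultures share a source not stated in the labels, p-values measure only the spread between these libraries.

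The members and lists were chosen with earlier results of these data known. All 31 members are named, with the 4 smallest p in each other pathway list, PCNA, and the 3 smallest p in each reference list, except that some genes this rule takes are left out; ALKBH2, ALKBH3, MAN2C1, RFFL and the other exon-sharing neighbours, pseudogenes and the fibroblast genes were named after their values were seen. Alternatives were RLE, total-count and ERCC scaling, no filter, a filter of 1 CPM in 3 libraries, DESeq2 1.42.0, voom of limma 3.58.1, the replicate number as a block, an adjusted p under 0.01 and leaving out each library. Of the 6 columns of counts none was left unused. A planned comparison of the APEX1 and APEX2 proteins was not made. Figures were drawn with matplotlib 3.10.9.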

Additional observations from a re-analysis of the deposited data

How the results depend on the processing

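The 6 rises and 8 falls among members (2543 and 2576 of all genes, 5 and 29 of the other pathway genes) became 0 and 0 under ERCC scaling (129 and 7 of all genes, 1 and 0 of the pathway genes; 1 member with an unadjusted p under 0.05) and 2 and 4 at an adjusted p under 0.01 (1470 and 1587; 2 and 18). Leaving out 1 library gave 3 to 8 rises and 4 to 9 falls among members, and 2 to 7 rises and 19 to 33 falls among pathway genes, lowest without untreated libraries. Counts over all genes in those omissions are not given here, so nothing particular to the members is read from these numbers. ERCC scaling without APX2009 replicate 1, chosen after seeing the data, gave 1 and 22 members, 459 and 9230 genes overall and 1 and 67 pathway genes. The cause was not tested. There the log2 changes turned to -0.27 for SMUG1, -0.34 for TDG, -0.26 for MBD4, -0.14 for OGG1, -0.39 for NTHL1, -0.43 for NEIL1, -0.12 for APTX, -0.42 for PARP1, -0.54 for PARP2, -0.32 for PARP3, -0.43 for PARG, -0.50 for POLB, -0.27 for POLL, -0.44 for LIG3, -0.19 for NUDT1, -0.22 for HMGB1, -0.29 for GADD45A and -0.24 for PPID. Other turns of sign concerned genes near 0. EXOG was at 0.012 with total counts, 0.091 with ERCC scaling, 0.0044 with the 1 CPM filter, 0.035 with voom, 0.0079 with the replicate block and -0.16 to 0.17 over single-library omissions. Over the omissions MPG ran from -0.20 to 0.026, PARP2 from -0.048 to 0.086 and POLB from -0.014 to 0.055, each turning without APX2009 replicate 1.

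The labels do not state that replicate numbers pair the cultures, so the block was kept as an alternative. Deviations of same-numbered libraries had correlations of 0.140, 0.0782 and 0.00599, and those of differently numbered ones ran from -0.144 to 0.115. With so few libraries these values cannot settle whether the cultures were paired. With the replicate block 16 members were called: the same 14, DUT and TDG. With no filter 15 were called, without MBD4 and with DUT and TDG. Counts over all genes under the block and with no filter are not given here, so nothing particular to the members is read from those either. APLF and NEIL3, with 8 to 41 and 10 to 26 counts per library, are limited by depth.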
